A study of Mus musculus with 14 samples.

Results

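The genes described here are 9 components of death signalling downstream of tumour necrosis factor (TNF) and of necroptosis, *Tnfrsf1a*, *Ripk1*, *Fadd*, *Casp8*, *Cflar*, *Tnfaip3*, *Ripk3*, *Mlkl* and *Zbp1*. They were taken by symbol, with earlier results of these data known, and all 9 were found among the 18781 genes of the deposited expression table. A gene was tested when its mean over all libraries was at least 3.32 on the log2 scale, which is 10 on the linear scale, and 8 of the 9 genes passed, among 12802 tested genes in all. *Zbp1* did not pass.

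RNA was sequenced from untreated mouse small intestinal organoids, which are epithelial cultures grown from intestinal stem cells, in IntestiCult medium. Recombination of the floxed alleles was driven by one copy of Cre under the *Villin* promoter, which is active in intestinal epithelium. The WT group (4 samples) carried floxed alleles of *Atg16l1* and *Rnaseh2b* without Cre, *Atg16l1*ΔIEC (4 samples) carried Cre with floxed *Atg16l1*, *Rnaseh2b*ΔIEC (2 samples) Cre with floxed *Rnaseh2b*, and *Atg16l1/Rnaseh2b*ΔIEC (4 samples), called the double knockout here, Cre with both floxed genes. *Atg16l1* is needed for autophagosome formation and *Rnaseh2b* encodes a subunit of the enzyme that removes ribonucleotides from DNA. The ages of the mice and whether samples of a genotype came from separate mice are not given, so the p-values measure only the spread between these samples, which may be technical.

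TNF binds its receptor TNFR1, which assembles a complex around the kinase RIPK1 that activates NF-κB and keeps the cell alive. A second complex forms when this signal is disturbed, in which FADD recruits caspase-8, and caspase-8 either starts apoptosis or, together with its relative cFLIP, cleaves RIPK1 and RIPK3 and so prevents necroptosis. When caspase-8 is blocked, RIPK3 phosphorylates MLKL, and MLKL permeabilises the plasma membrane. The nucleic acid sensor ZBP1 engages RIPK3 directly through a shared interaction motif. A20, the product of *Tnfaip3*, edits ubiquitin chains on these complexes and restrains both NF-κB signalling and cell death. In the intestine, loss of epithelial caspase-8 or FADD is known to cause necroptosis of epithelial cells, and ATG16L1 is known to protect intestinal epithelium from TNF-induced necroptosis.

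The deposited values are normalized between samples on a log2 scale, and the transformation is not named. Low genes were shrunk toward a common value. The median SD over samples was 0.025 at levels of 1 to 2 and 0.151 at levels of 6 to 7, and differences in low genes are therefore understated. No read totals can be derived from such values, which leaves the sequencing depth unknown. By the library names all WT samples were in lane 1, all single knockout samples were in lane 2, and 2 *Atg16l1/Rnaseh2b*ΔIEC samples were in each lane, so lane and genotype can be separated only through the double knockout. Samples 1 and 2 of a genotype, and likewise 3 and 4, deviated together from their group mean, with correlations from 0.41 to 0.86 across genes. In the double knockout samples 1 and 2 were in lane 2 and samples 3 and 4 in lane 1. A lane covariate thus rests on the difference between these pairs, and effects of lane and of pair cannot be told apart by it. The 2 *Rnaseh2b*ΔIEC samples are numbered 1 and 2 and were treated as such a pair, but whether they deviate together cannot be measured in a group of 2. *Atg16l1* was lowered from 9.46 ± 0.05 (SD, n = 4) in WT to 6.92 ± 0.29 (SD, n = 4) by its own deletion, but only to 8.39 ± 0.19 (SD, n = 4) in the double knockout. *Rnaseh2b* was lowered from 8.54 ± 0.13 (SD, n = 4) to 7.18 ± 0.04 (SD, n = 2) in the single and to 7.81 ± 0.10 (SD, n = 4) in the double knockout. Both target RNAs were thus only partly lowered in the double knockout. The 5 epithelial markers (*Epcam*, *Cdh1*, *Vil1*, *Krt8* and *Cdx2*) summed to between 16.66 and 16.76 in every sample on the log2 scale. The 9 stromal and immune markers in the table summed to between 7.79 and 8.46. The highest of them was *Vim*, with a mean of 7.87, followed by *Pecam1* (4.37) and *Lyz2* (3.86), and *Ptprc* stood at 0.49 and *Cd3e* at -1.33.

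All members except *Zbp1* were expressed in the WT epithelium. Divided by the joint length of all annotated exons, the log2 level per kb in WT was highest for *Tnfrsf1a* (10.08), followed by *Ripk3* (9.84) and *Casp8* (9.83), whose samples overlapped. *Fadd* (7.46), *Ripk1* (7.15), *Tnfaip3* (6.52) and *Cflar* (6.28) came next, and their WT samples did not overlap with each other. The last tested gene was *Mlkl*, the executor of necroptosis, at 5.12. *Zbp1* stood at -0.71 per kb. The receptor, caspase-8 and both RIP kinases of the pathway were thus measured at levels above those of *Mlkl* and *Zbp1* in untreated organoids. In both single knockouts *Tnfaip3* stood below *Cflar* on this scale, at 5.95 against 6.29 in *Atg16l1*ΔIEC and at 5.69 against 6.20 in *Rnaseh2b*ΔIEC organoids. Without division by length, *Ripk1* (10.21) and *Cflar* (9.94) stood above *Fadd* (9.42) and *Tnfaip3* (9.37) in WT, so the order of these genes depends on it.

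**Figure D1:**
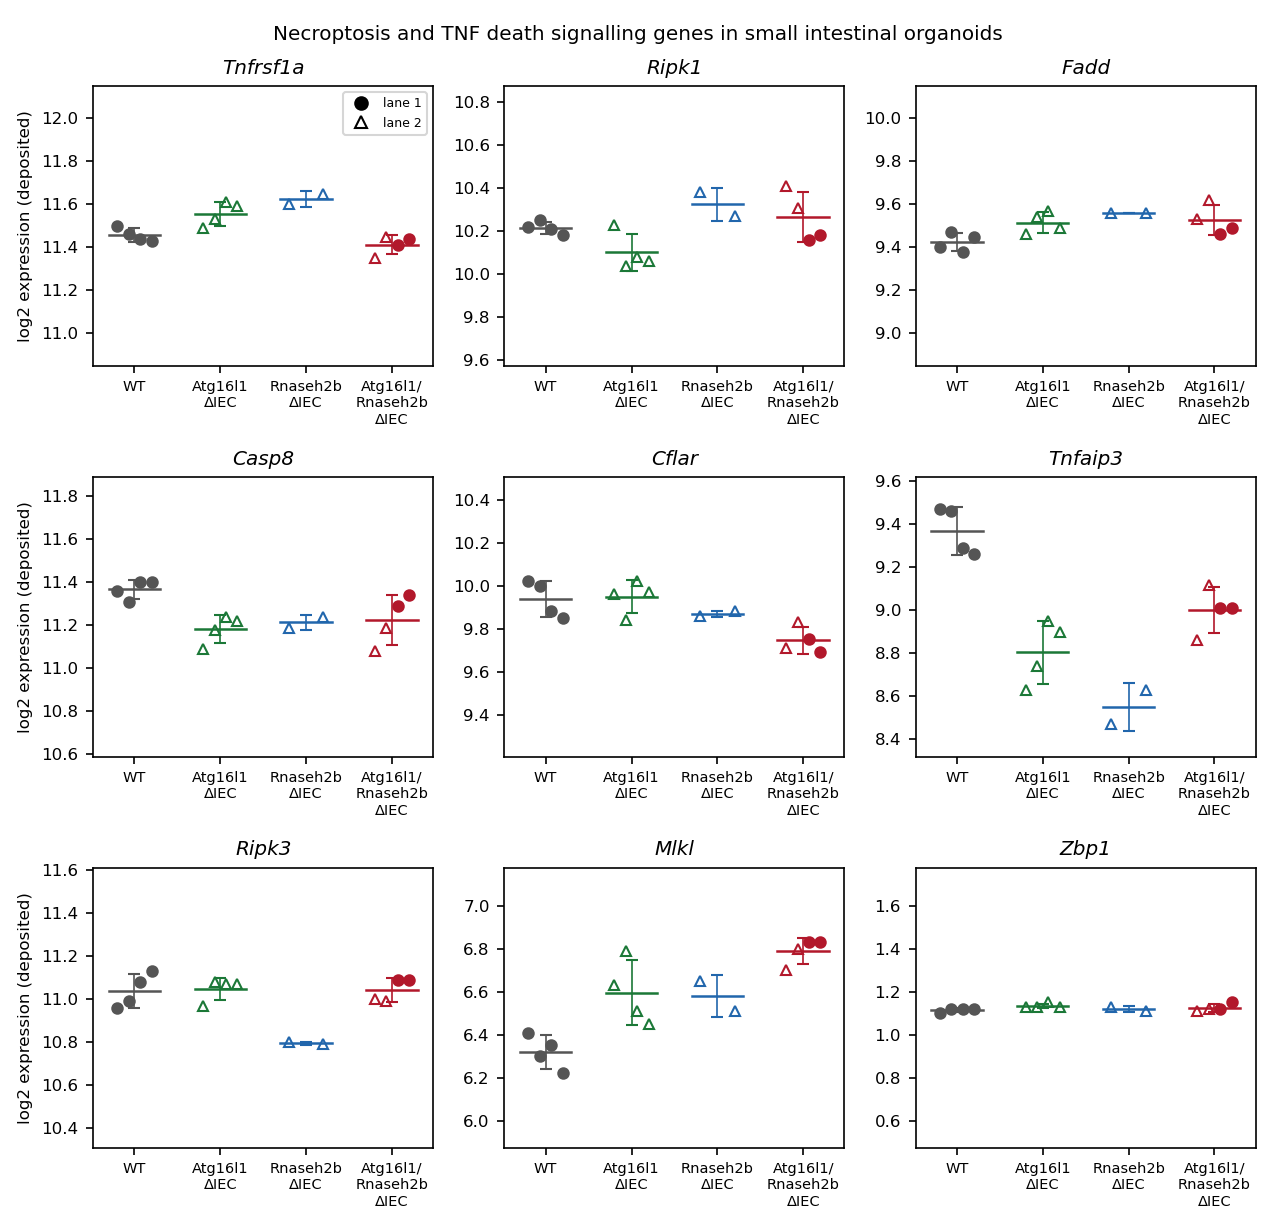
Log2 expression of the 9 genes in every organoid sample, by genotype, with a bar for the group mean and whiskers of 1 SD (filled circles lane 1, open triangles lane 2). *Tnfaip3* separates WT (9.26 to 9.47) from all knockout samples (8.47 to 9.12), *Mlkl* is lowest in WT (6.22 to 6.41), *Ripk3* is lowest in *Rnaseh2b*ΔIEC (10.79 and 10.80), and *Zbp1* lies between 1.10 and 1.15 everywhere.

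The first question was which of these genes differ between genotypes. Differences were tested with limma in 1 fit of all samples, and a gene is called when its Benjamini-Hochberg adjusted p over all tested genes is under 0.05. Between *Rnaseh2b*ΔIEC and WT organoids, 2 of the 8 genes rose (*Tnfrsf1a* and *Mlkl*) and 2 fell (*Ripk3* and *Tnfaip3*), where 14.4% of all tested genes rose and 12.3% fell. Between *Atg16l1*ΔIEC and WT organoids, *Mlkl* rose and *Casp8* and *Tnfaip3* fell, against 8.73% rising and 10.4% falling among all genes. In *Atg16l1/Rnaseh2b*ΔIEC against WT organoids, *Mlkl* rose and *Cflar* and *Tnfaip3* fell, against 8.1% rising and 8.01% falling. Thus *Mlkl* was higher and *Tnfaip3* lower in each of the 3 knockouts, which were all compared with the same WT samples.

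The double knockout was then compared with each single knockout. Relative to *Rnaseh2b*ΔIEC, *Ripk3* and *Tnfaip3* were higher and *Tnfrsf1a* was lower, where 11.1% of all tested genes were higher and 14.4% lower. Relative to *Atg16l1*ΔIEC, *Cflar* and *Tnfrsf1a* were lower and 0 members were higher with limma, against 12.5% lower and 12.6% higher among all genes. In that comparison 5 of the 8 members had an unadjusted p under 0.05, as had 5017 of all 12802 tested genes. The interaction, which is the effect of *Rnaseh2b* deletion in an *Atg16l1*-deleted background minus its effect in an *Atg16l1*-intact one, passed the threshold for *Tnfaip3* and *Ripk3* in the positive direction and for *Tnfrsf1a* in the negative direction, where 17% of all genes passed it in the positive and 18.1% in the negative direction. The targeted genes passed it too, at 1.40 for *Atg16l1* (adjusted p = 0.00022, limma) and 0.55 for *Rnaseh2b* (adjusted p = 0.0037), and both were less reduced in the double than in the single knockouts. The part of this smaller reduction in the interactions of the members was not tested.

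These shares, and the choice of the members with earlier results known, limit the counts to a description. Samples of the 2 groups did not overlap for 7 of the 8 genes in *Rnaseh2b*ΔIEC against WT, where 55.5% of all tested genes did not overlap. For *Atg16l1*ΔIEC and for *Atg16l1/Rnaseh2b*ΔIEC against WT the count was 3 of 8 each, against 24.6% and 22.3% of all genes. The double knockout did not overlap with *Rnaseh2b*ΔIEC for 5 genes and with *Atg16l1*ΔIEC for 2 genes, against 49.9% and 23.9%. The median absolute log2 fold change of the members was between 0.10 and 0.17 in the 5 comparisons of genotypes, and between 0.08 and 0.11 over all tested genes. Most differences in these genes were therefore small, and *Tnfaip3* alone passed 0.5 in a comparison of genotypes.

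**Figure D2:**
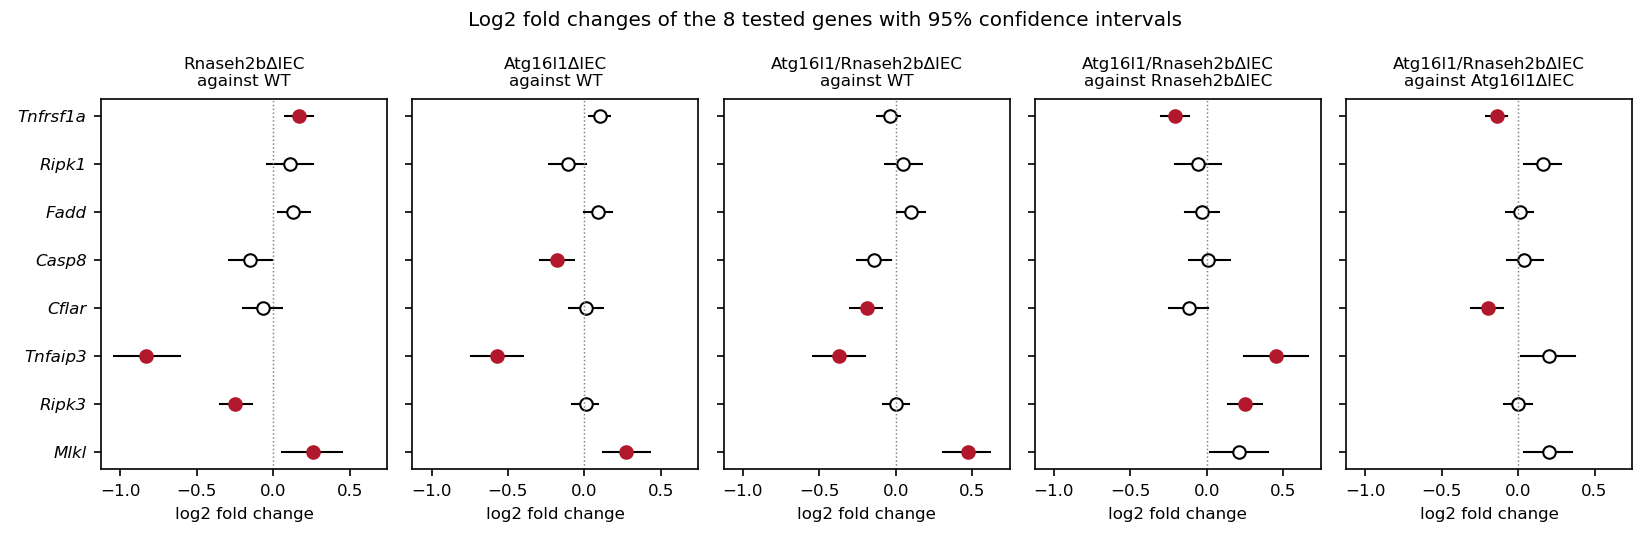
Log2 fold changes (horizontal axis) of the 8 tested genes in the 5 comparisons of genotypes, with 95% confidence intervals as lines; filled red points passed an adjusted p of 0.05. *Tnfaip3* lies left of 0 in all comparisons with WT and *Mlkl* right of 0, and the estimates of the other 6 genes lie between -0.25 and 0.25.

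*Tnfaip3* (ENSMUSG00000019850, GRCm38 chromosome 10, 19000910 to 19015657, minus strand) encodes A20 and is itself a well-known NF-κB target gene. Its value was 9.47, 9.46, 9.29 and 9.26 in the WT samples 1 to 4. In *Atg16l1*ΔIEC organoids it was 8.63, 8.74, 8.95 and 8.90. The 2 *Rnaseh2b*ΔIEC samples stood at 8.47 and 8.63, and the *Atg16l1/Rnaseh2b*ΔIEC samples at 8.86, 9.12, 9.01 and 9.01. Every knockout sample was thus below every WT sample, the *Rnaseh2b*ΔIEC samples were below all double knockout samples, and the double knockout overlapped with *Atg16l1*ΔIEC.

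*Tnfaip3* fell by 43.6% in *Rnaseh2b*ΔIEC organoids (log2 fold change -0.83, SE 0.10, adjusted p = 0.00013, limma). It fell by 32.5% in *Atg16l1*ΔIEC (-0.57, SE 0.08, adjusted p = 0.00047) and fell by 22.7% in *Atg16l1/Rnaseh2b*ΔIEC organoids (-0.37, SE 0.08, adjusted p = 0.0097). The double knockout therefore stood closer to WT than either single knockout did in its mean, and it was higher than *Rnaseh2b*ΔIEC by 0.45 (SE 0.10, adjusted p = 0.0055). Its difference of 0.20 from *Atg16l1*ΔIEC did not pass (95% interval 0.02 to 0.37, adjusted p = 0.088). The interaction for *Tnfaip3* was 1.02 (SE 0.13, adjusted p = 0.00012). With lane as a covariate all 5 of these calls were retained, with adjusted p between 0.0064 and 0.036. With the sample pairs as a random effect, the falls in the single knockouts (adjusted p = 0.0055 and 0.019) and the interaction (adjusted p = 0.0048) remained past the threshold, whereas the fall in the double knockout (adjusted p = 0.15) and its difference from *Rnaseh2b*ΔIEC (adjusted p = 0.082) did not. That difference was also lost without *Rnaseh2b*ΔIEC sample 1 (0.37, adjusted p = 0.077, range over all alternatives 0.0021 to 0.23).

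Just before one of the start sites of *Tnfaip3* a κB motif was found, the sequence that NF-κB dimers bind, and it is shown because *Tnfaip3* carries the widest difference among these genes. The 120 bases before that RefSeq start site (GRCm38.p6, chr10:19015411-19015530, minus strand, 5′ to 3′) read as follows, with the motif in capitals.
Tnfaip3: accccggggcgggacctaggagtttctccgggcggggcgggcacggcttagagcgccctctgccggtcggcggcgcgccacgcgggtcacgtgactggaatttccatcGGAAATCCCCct
The motif searched was GGGNNTTTCC on both strands, and it lies here opposite to the gene from 12 to 3 bases before the start. Among 32851 RefSeq promoters, each of 250 bases before and 50 after a start, 1.63% hold it. For 8 of the 9 genes 10 promoters were available, with 2 start sites each for *Tnfaip3* and *Ripk1*, and the promoter shown was the only one of the 10 with a match. A transcript in GENCODE starts farther upstream of *Tnfaip3*, so these bases lie within the gene span given above. The interferon-stimulated response element GAAANNGAAA, which interferon-activated factors bind, is held by 3.44% of promoters and was found in one promoter of *Ripk1*, from 5 bases before to 4 bases after the start, and in that of *Cflar*, from 6 to 15 bases after it. A match of letters is a description and shows no binding.

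*Tnfrsf1a* (ENSMUSG00000030341, chromosome 6, 125349362 to 125362484) encodes TNFR1. It was 11.50, 11.46, 11.44 and 11.43 in WT and 11.60 and 11.65 in *Rnaseh2b*ΔIEC organoids. In *Atg16l1*ΔIEC it was 11.49, 11.53, 11.61 and 11.59 and in the double knockout 11.35, 11.45, 11.41 and 11.44. The double knockout samples were below all samples of both single knockouts and overlapped with WT. *Tnfrsf1a* rose by 12.5% in *Rnaseh2b*ΔIEC against WT (0.17, SE 0.04, adjusted p = 0.0095, limma). The difference of 0.10 in *Atg16l1*ΔIEC did not pass (95% interval 0.03 to 0.17, adjusted p = 0.056). The double knockout was lower than *Rnaseh2b*ΔIEC by 13.7% (-0.21, SE 0.04, adjusted p = 0.0032) and lower than *Atg16l1*ΔIEC by 9.3% (-0.14, SE 0.03, adjusted p = 0.01). The interaction for *Tnfrsf1a* was -0.31 (SE 0.05, adjusted p = 0.00087). It was retained with lane as a covariate (adjusted p = 0.019) and with pairs as a random effect (adjusted p = 0.03), whereas the differences of the double knockout from *Rnaseh2b*ΔIEC and *Atg16l1*ΔIEC were lost with pairs (adjusted p = 0.076 and 0.15). The rise in *Rnaseh2b*ΔIEC was lost with either (adjusted p = 0.064 and 0.14) and without *Rnaseh2b*ΔIEC sample 2, over a range of adjusted p from 0.006 to 0.29, and without that sample the difference between the double knockout and *Rnaseh2b*ΔIEC also did not pass.

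*Ripk1* (ENSMUSG00000021408, chromosome 13, 34002363 to 34037147) encodes the kinase shared by the survival and death complexes. The WT samples lay at 10.22, 10.25, 10.21 and 10.18 and the *Rnaseh2b*ΔIEC samples at 10.38 and 10.27. The *Atg16l1*ΔIEC samples lay at 10.23, 10.04, 10.08 and 10.06 and the double knockout samples at 10.41, 10.31, 10.16 and 10.18. The double knockout split by lane and pair, with samples 1 and 2 (lane 2) above samples 3 and 4 (lane 1). *Ripk1* did not pass the threshold in any of the 6 comparisons. Its closest value was 0.16 in the double knockout against *Atg16l1*ΔIEC (95% interval 0.04 to 0.28, adjusted p = 0.052, limma), which became 0.26 with lane as a covariate (adjusted p = 0.0046). With that covariate the difference of *Atg16l1*ΔIEC from WT changed from -0.11 to -0.30 (adjusted p = 0.19 and 0.024). The gene body overlaps that of *Serpinb6a* on the opposite strand over 432 bases, *Serpinb6a* stood at 12.91, and whether counting used strand is not stated, so the value of *Ripk1* may hold reads of its neighbour.

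*Fadd* (ENSMUSG00000031077, chromosome 7, 144577318 to 144582463), the adaptor that brings caspase-8 to the death complex, varied little. It was 9.40, 9.47, 9.38 and 9.45 in WT, 9.46, 9.54, 9.57 and 9.49 in *Atg16l1*ΔIEC, 9.56 in both *Rnaseh2b*ΔIEC samples and 9.53, 9.62, 9.46 and 9.49 in the double knockout. The *Rnaseh2b*ΔIEC samples lay above WT, with a difference of 0.13 that did not pass (95% interval 0.03 to 0.24, adjusted p = 0.065, limma). *Fadd* did not pass in any comparison, and its 95% intervals in the 5 comparisons of genotypes lay between -0.14 and 0.24. An antisense gene, *Faddos*, overlaps it over 4195 bases and stood at only -1.81.

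*Casp8* (ENSMUSG00000026029, chromosome 1, 58795374 to 58847503) encodes the protease that separates apoptosis from necroptosis. WT samples stood at 11.36, 11.31, 11.40 and 11.40 and *Atg16l1*ΔIEC samples at 11.09, 11.18, 11.24 and 11.22. The *Rnaseh2b*ΔIEC samples stood at 11.19 and 11.24 and the double knockout samples at 11.08, 11.19, 11.29 and 11.34. All single knockout samples were below all WT samples, and the 2 double knockout samples of lane 1 were above the 2 of lane 2. *Casp8* fell by 11.9% in *Atg16l1*ΔIEC (-0.18, SE 0.05, adjusted p = 0.027, limma). In *Rnaseh2b*ΔIEC and in the double knockout the values of -0.15 and -0.14 did not pass (95% intervals -0.29 to -0.01 and -0.25 to -0.03, adjusted p = 0.093 and 0.082). After adjustment for lane the fall in *Atg16l1*ΔIEC became -0.002 (adjusted p = 0.99) and the value in *Rnaseh2b*ΔIEC 0.03 (adjusted p = 0.84). For *Casp8* the effects of lane and genotype cannot be told apart, and its call was also lost on leaving out *Atg16l1*ΔIEC samples 1 or 2 or WT samples 1, 3 or 4, over a range of adjusted p from 0.0065 to 0.99.

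*Cflar* (ENSMUSG00000026031, chromosome 1, 58711508 to 58758884) encodes cFLIP and lies 36.5 kb from *Casp8*. WT samples stood at 10.02, 10, 9.88 and 9.85 and *Atg16l1*ΔIEC samples at 9.96, 9.84, 10.02 and 9.97. The *Rnaseh2b*ΔIEC samples stood at 9.86 and 9.88 and the double knockout samples at 9.71, 9.83, 9.75 and 9.69. The double knockout was below every sample of the other 3 groups. *Cflar* fell by 12.6% in the double knockout against WT (-0.19, SE 0.05, adjusted p = 0.021, limma) and by 13.2% against *Atg16l1*ΔIEC (-0.20, SE 0.05, adjusted p = 0.011). Against *Rnaseh2b*ΔIEC the value of -0.12 did not pass (95% interval -0.25 to 0.01, adjusted p = 0.15). Neither single knockout differed from WT past the threshold, at 0.01 in *Atg16l1*ΔIEC and -0.07 in *Rnaseh2b*ΔIEC. Both falls were retained with lane as a covariate (adjusted p = 0.037 and 0.039) and lost with pairs as a random effect (adjusted p = 0.23 and 0.14), and the fall against WT was lost without double knockout sample 1 or WT sample 1 or 2, over a range of adjusted p from 0.016 to 0.46.

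*Ripk3* (ENSMUSG00000022221, chromosome 14, 55784995 to 55788865) encodes the kinase that commits a cell to necroptosis. The *Rnaseh2b*ΔIEC samples stood at 10.80 and 10.79, below all 12 samples of the other groups. WT samples stood at 10.96, 10.99, 11.08 and 11.13, *Atg16l1*ΔIEC samples at 10.97, 11.08, 11.07 and 11.07 and double knockout samples at 11, 10.99, 11.09 and 11.09. These 3 groups overlapped throughout. *Ripk3* fell by 15.7% in *Rnaseh2b*ΔIEC against WT (-0.25, SE 0.05, adjusted p = 0.0036, limma) and was higher by 19% in the double knockout than in *Rnaseh2b*ΔIEC (0.25, SE 0.05, adjusted p = 0.0037). The values in *Atg16l1*ΔIEC and in the double knockout against WT were 0.01 and 0.00, both with a 95% interval from -0.08 to 0.09. The interaction was 0.24 (SE 0.06, adjusted p = 0.011). With lane as a covariate the fall became -0.15 (adjusted p = 0.16) and the interaction 0.11 (adjusted p = 0.44), whereas the difference between the double knockout and *Rnaseh2b*ΔIEC remained at 0.20 (adjusted p = 0.014), and also within lane 2 (0.20, adjusted p = 0.017). With pairs as a random effect this difference passed at an adjusted p of 0.048, whereas the fall (0.05) and the interaction (adjusted p = 0.086) did not. It was lost without *Rnaseh2b*ΔIEC sample 2, and all *Ripk3* calls rest on the 2 *Rnaseh2b*ΔIEC samples.

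*Mlkl* (ENSMUSG00000012519, chromosome 8, 111311797 to 111338177), the membrane-permeabilising effector, was the member that rose most. WT samples stood at 6.41, 6.30, 6.35 and 6.22 and *Rnaseh2b*ΔIEC samples at 6.65 and 6.51. *Atg16l1*ΔIEC samples stood at 6.63, 6.79, 6.51 and 6.45 and double knockout samples at 6.70, 6.80, 6.83 and 6.83. All 10 knockout samples were above all WT samples, and the double knockout overlapped with *Atg16l1*ΔIEC but not with *Rnaseh2b*ΔIEC. *Mlkl* rose by 38.4% in the double knockout (0.47, SE 0.07, adjusted p = 0.002, limma), by 20.7% in *Atg16l1*ΔIEC (0.27, SE 0.07, adjusted p = 0.02) and by 19.4% in *Rnaseh2b*ΔIEC organoids (0.26, SE 0.09, adjusted p = 0.048). The double knockout exceeded *Rnaseh2b*ΔIEC by 0.21 (95% interval 0.02 to 0.40, adjusted p = 0.092) and *Atg16l1*ΔIEC by 0.20 (0.04 to 0.35, adjusted p = 0.06), neither of which passed. The interaction for *Mlkl* was -0.06 (95% interval -0.30 to 0.19, adjusted p = 0.72). The rise in the double knockout was retained with lane as a covariate (0.51, adjusted p = 0.003) and lost with pairs as a random effect (adjusted p = 0.071, range over the alternatives 0.0012 to 0.44). The rises in the single knockouts were lost with either of these, the one in *Atg16l1*ΔIEC also without WT sample 4, and the one in *Rnaseh2b*ΔIEC in 7 of 10 alternatives and on leaving out any 1 of 10 of the 14 samples, both *Rnaseh2b*ΔIEC samples among them (adjusted p from 0.023 to 0.37).

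*Zbp1* (ENSMUSG00000027514, chromosome 2, 173206612 to 173218923), the sensor of Z-form nucleic acids, stood between 1.10 and 1.15 in all 14 samples. Its mean was 2.18 on the linear scale, and 21.6% of all genes in the table were lower. At this level values are pulled together between samples, so neither a difference nor its absence can be read from them, and *Zbp1* was not tested. In WT the level of *Mlkl* was 80.0 on the linear scale, and that of *Tnfrsf1a* was 2810.

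**Figure D3:**
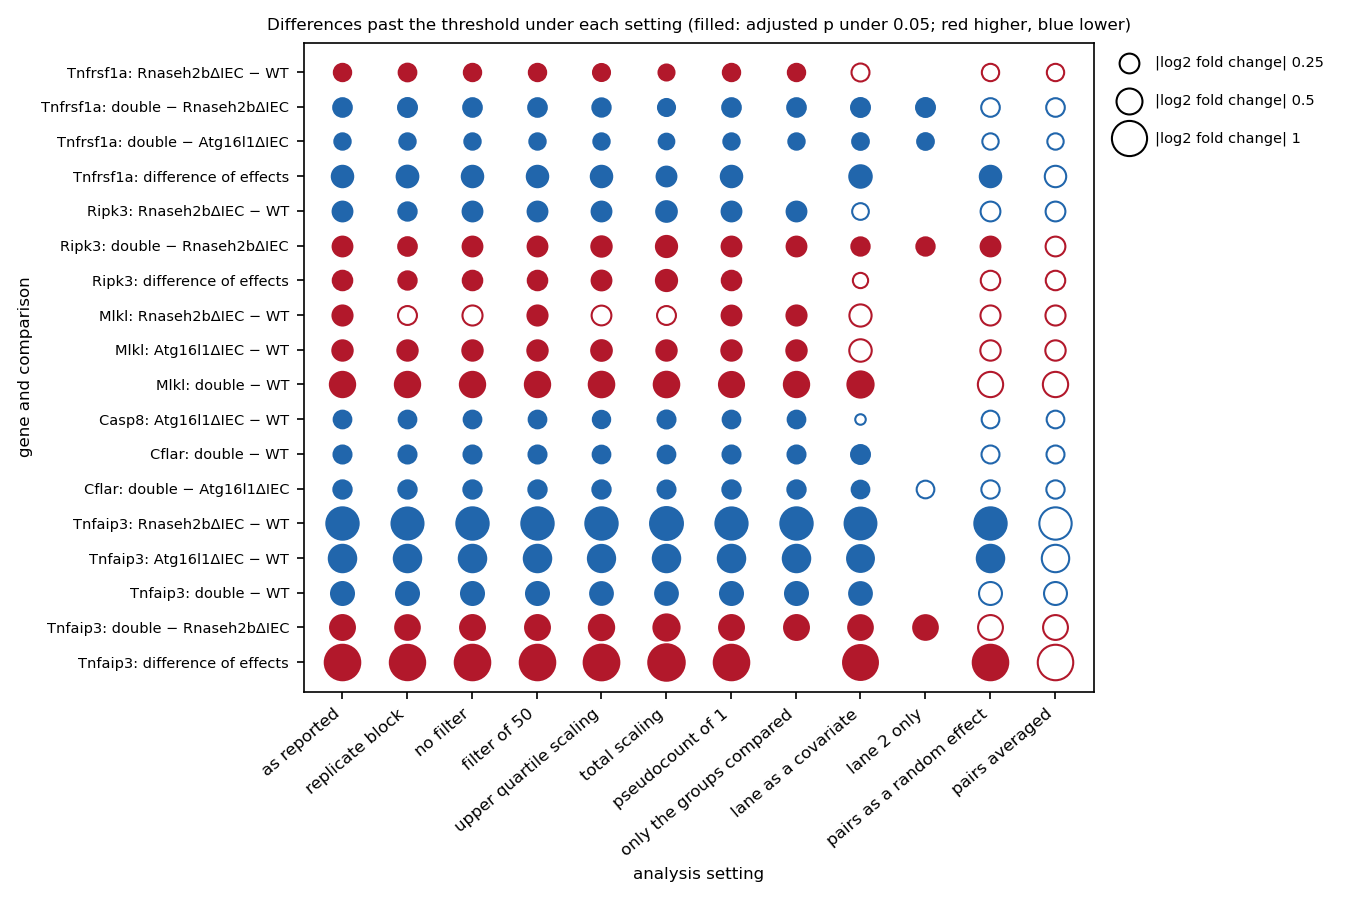
The 18 differences of the members that passed the threshold (rows, "double" is *Atg16l1/Rnaseh2b*ΔIEC) under the reported analysis and 11 alternatives (columns); circle area grows with the absolute log2 fold change, red is higher and blue lower, and filled circles passed an adjusted p of 0.05. The falls of *Tnfaip3* in both single knockouts stay filled everywhere except where paired samples were averaged, whereas *Casp8* shrinks to near 0 with lane as a covariate.

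Markers of differentiated cells moved with some of these results. The counts of called markers are to be read beside the shares of all tested genes given above. Over the 5 comparisons of genotypes these shares lay between 8.01% and 14.4% in each direction. Of 11 enterocyte markers, 9 rose in *Rnaseh2b*ΔIEC against WT (median log2 fold change 1.03) and 10 were lower in the double knockout than in *Rnaseh2b*ΔIEC (median -1.26). Their summed log2 level ranged from 18.70 to 18.83 in *Rnaseh2b*ΔIEC, 17.65 to 18.27 in WT, 17.89 to 18.63 in *Atg16l1*ΔIEC and 17.34 to 17.90 in the double knockout. All 5 goblet cell markers were higher in the double knockout than in either single knockout, with sums of 16.31 to 16.57 against 15.40 to 15.71 in *Atg16l1*ΔIEC and 15.49 to 15.64 in *Rnaseh2b*ΔIEC and 15.86 to 16.38 in WT. Of 7 Paneth cell markers, 4 were higher in the double knockout than in WT, with sums of 15.46 to 15.86 against 14.96 to 15.08. Of the same 7, 1 was called higher in the double knockout than in *Rnaseh2b*ΔIEC and 5 than in *Atg16l1*ΔIEC. Of 7 stem cell markers, 6 fell in *Atg16l1*ΔIEC, with sums of 14.12 to 14.35 against 14.68 to 14.86 in WT, and 2 fell in *Rnaseh2b*ΔIEC. The enterocyte markers thus separated *Rnaseh2b*ΔIEC from WT and from the double knockout, comparisons in which *Tnfrsf1a*, *Ripk3* and *Tnfaip3* were called. *Tnfaip3* was also called in *Atg16l1*ΔIEC and in the double knockout against WT, where the enterocyte sums overlapped. There 1 of the 11 markers rose in *Atg16l1*ΔIEC, and 1 rose and 3 fell in the double knockout. Other marker sums did not overlap with WT in these comparisons. Those of stem and goblet cells were below WT in *Atg16l1*ΔIEC, where 3 of the 5 goblet cell markers fell. The Paneth cell sums were above WT in the double knockout. *Tnfrsf1a* was also called in the double knockout against *Atg16l1*ΔIEC, where 5 of the 11 enterocyte markers were lower. The part of cell composition in the results for these genes was not tested, and in bulk samples fewer cells of a type and less RNA per cell cannot be told apart.

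The other genes of the pathway were described from 5 lists of 78 genes in all, of which 77 were in the table and 71 were tested. In *Rnaseh2b*ΔIEC against WT 14 of these rose and 3 fell, in *Atg16l1*ΔIEC 9 rose and 3 fell, and in the double knockout 6 rose and 6 fell. The double knockout was higher than *Rnaseh2b*ΔIEC for 3 genes and lower for 13, and higher than *Atg16l1*ΔIEC for 4 and lower for 12. These counts, and those of the single lists below, are a description to be read against the shares of all tested genes, which against WT were 14.4% and 12.3%, 8.73% and 10.4%, and 8.1% and 8.01%, and for the double knockout 11.1% and 14.4% against *Rnaseh2b*ΔIEC and 12.6% and 12.5% against *Atg16l1*ΔIEC, higher before lower. With each sample scaled to its total, the split against *Rnaseh2b*ΔIEC became 8 higher and 6 lower, so the direction of this list against *Rnaseh2b*ΔIEC depends on the scaling. Over all tested genes the same scaling moved that comparison from 1417 higher and 1845 lower to 2377 higher and 1304 lower. The list medians lay between -0.05 and 0.05 in all 5 comparisons, and the medians over all tested genes were 0.

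**Figure D4:**
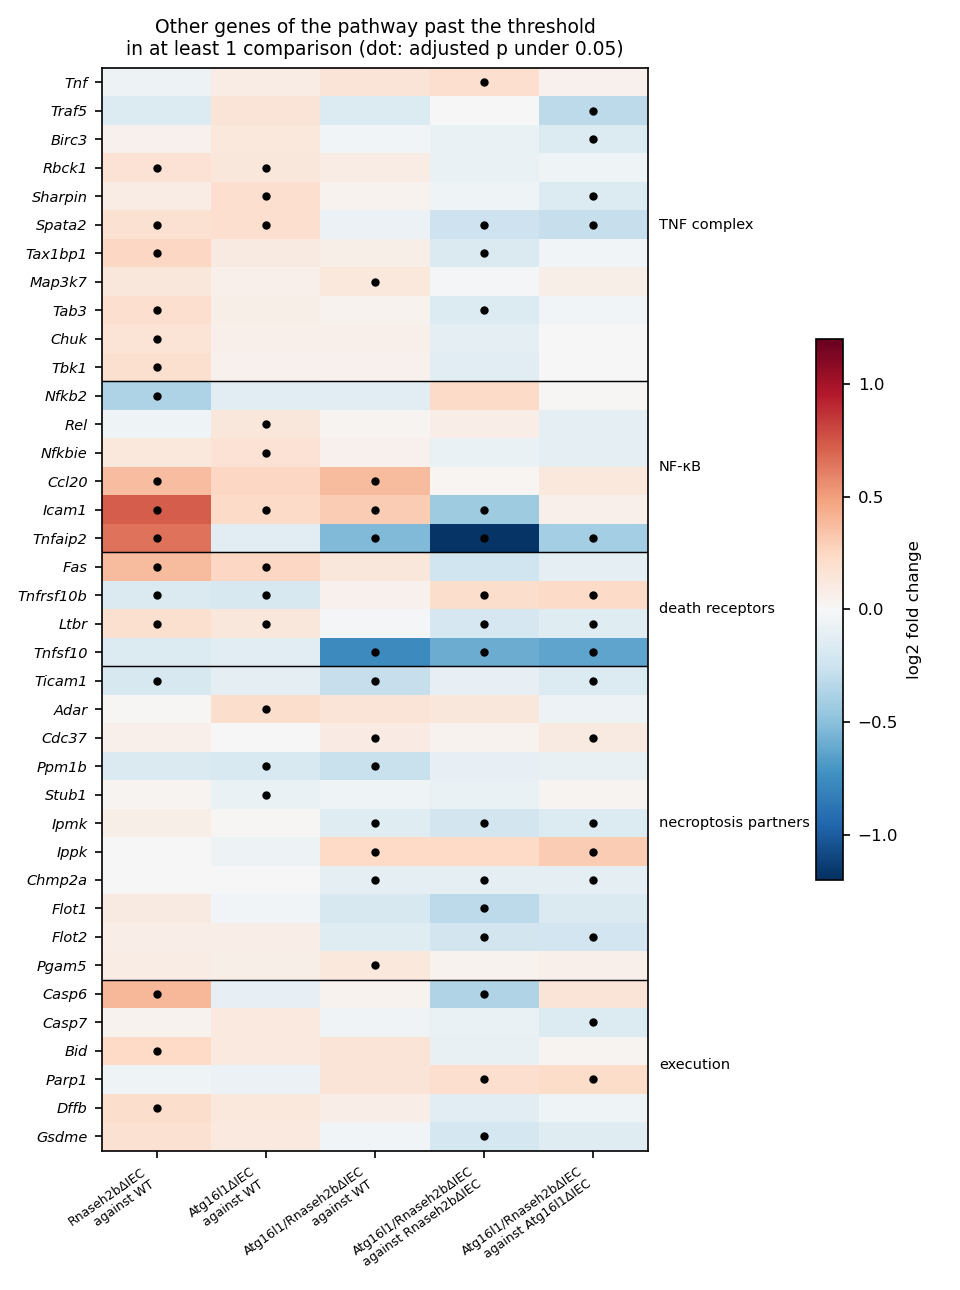
Log2 fold changes (colour) of the pathway genes outside the 9 members that passed the threshold in at least 1 of the 5 comparisons of genotypes (columns); a dot marks an adjusted p under 0.05. *Icam1* and *Tnfaip2* rise and *Nfkb2* falls in *Rnaseh2b*ΔIEC, and *Tnfsf10* falls in the 3 comparisons of *Atg16l1/Rnaseh2b*ΔIEC.

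Ligands of the TNF receptors were low. *Tnf* itself stood at 4.27 to 4.43 in WT and 4.46 to 4.53 in the double knockout. It was higher in the double knockout than in *Rnaseh2b*ΔIEC by 0.20 (SE 0.06, adjusted p = 0.033, limma). This call was lost with pairs as a random effect (adjusted p = 0.29), with lane as a covariate (adjusted p = 0.088) and within lane 2 (adjusted p = 0.11). *Lta* (0.84) and *Ltb* (0.23) were too low to test. Of the 27 tested genes of the receptor complex and its ubiquitin enzymes and kinases, 6 rose in *Rnaseh2b*ΔIEC, 3 rose in *Atg16l1*ΔIEC and 1 rose in the double knockout. *Spata2*, which bridges the deubiquitinase CYLD to the complex, rose in *Rnaseh2b*ΔIEC (0.18) and in *Atg16l1*ΔIEC (0.20) and was lower in the double knockout than in either of them (-0.25 and -0.28). With pairs as a random effect only the difference from *Atg16l1*ΔIEC was retained among these 4 (adjusted p = 0.21, 0.11, 0.081 and 0.032), and both rises were also lost with lane as a covariate (adjusted p = 0.16 and 0.084). The interaction for *Spata2* was -0.45 (SE 0.06, adjusted p = 0.0003, and 0.013 with pairs as a random effect). *Sharpin*, a subunit of the linear ubiquitin ligase, rose in *Atg16l1*ΔIEC (0.20, adjusted p = 0.0081), and *Tax1bp1*, a ubiquitin-binding partner of A20, rose in *Rnaseh2b*ΔIEC (0.25, adjusted p = 0.0022). Both were lost with lane as a covariate (adjusted p = 0.068 and 0.16), and that of *Sharpin* also with pairs as a random effect (adjusted p = 0.15, and 0.032 for *Tax1bp1*).

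Genes of the NF-κB list moved in both directions. *Icam1*, an adhesion molecule, stood at 5.69 to 5.96 in WT and at 6.52 to 6.54 in *Rnaseh2b*ΔIEC organoids and rose by 0.73 (SE 0.07, adjusted p = 4.4e-05, limma, and 0.004 with pairs as a random effect). It rose by less in *Atg16l1*ΔIEC (0.23) and the double knockout (0.30), and both of these calls were lost with pairs (adjusted p = 0.24 and 0.17). The interaction for *Icam1* was -0.66 (adjusted p = 0.00027). *Tnfaip2* ranged from 7.61 to 8.07 in WT, 8.32 to 8.61 in *Rnaseh2b*ΔIEC and 7.18 to 7.49 in the double knockout, with a difference of -1.18 between the latter 2 groups (SE 0.17, adjusted p = 0.00059). Against WT *Tnfaip2* rose in *Rnaseh2b*ΔIEC (0.65, adjusted p = 0.012) and fell in the double knockout (-0.53, adjusted p = 0.02), and both were lost with pairs (adjusted p = 0.11 and 0.18). The chemokine gene *Ccl20* rose in *Rnaseh2b*ΔIEC (0.37, adjusted p = 0.037) and the double knockout (0.38, adjusted p = 0.02), neither of which was retained with pairs (adjusted p = 0.17 and 0.15). *Nfkb2*, which encodes the p100 precursor, fell in *Rnaseh2b*ΔIEC (-0.37, adjusted p = 0.013), and its interaction was 0.37 (adjusted p = 0.03). Both *Nfkb2* calls were lost with lane as a covariate (adjusted p = 0.61 and 0.86) and with pairs (adjusted p = 0.094 and 0.14). Of the 12 tested genes of this list, 3 rose and 1 fell in *Rnaseh2b*ΔIEC, 3 rose in *Atg16l1*ΔIEC, and 2 rose and 1 fell in the double knockout. *Cxcl1* (3.20) and *Cxcl2* (2.67) were too low to test.

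Among the other death receptors and their ligands, *Tnfsf10*, which encodes the ligand TRAIL, was the gene that fell most. It stood at 9.14 to 9.41 in WT, 9.01 to 9.30 in *Atg16l1*ΔIEC and 8.98 to 9.24 in *Rnaseh2b*ΔIEC organoids, and at 8.40 to 8.56 in the double knockout. The double knockout was lower than WT by 0.76 on the log2 scale (-0.76, SE 0.08, adjusted p = 0.00022, limma) and lower than *Rnaseh2b*ΔIEC and *Atg16l1*ΔIEC (-0.60 and -0.63), and these 3 calls were retained with lane as a covariate and with pairs as a random effect (adjusted p = 0.015, 0.035 and 0.015 with the latter). The TRAIL receptor gene *Tnfrsf10b* fell in *Rnaseh2b*ΔIEC (-0.17) and *Atg16l1*ΔIEC (-0.19) and was higher in the double knockout than in either (0.21 and 0.23). These 4 calls were lost with pairs as a random effect (adjusted p = 0.31, 0.21, 0.20 and 0.098), and the interaction of 0.40 (SE 0.07, adjusted p = 0.00074) was retained (adjusted p = 0.042). *Fas* rose in *Rnaseh2b*ΔIEC (0.38, adjusted p = 0.0075) and in *Atg16l1*ΔIEC (0.25, adjusted p = 0.024), and both calls were lost with pairs as a random effect (adjusted p = 0.18 and 0.34). *Ltbr*, the lymphotoxin β receptor gene, rose in both single knockouts (0.19 and 0.14) and was lower in the double knockout than in them (-0.20 and -0.15), and these 4 calls were lost with pairs (adjusted p = 0.06, 0.12, 0.051 and 0.079).

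Of 18 tested partners of RIPK3, MLKL and ZBP1, 1 fell in *Rnaseh2b*ΔIEC, 1 rose and 2 fell in *Atg16l1*ΔIEC, and 3 rose and 4 fell in the double knockout. *Ticam1*, whose product TRIF binds RIPK3 downstream of Toll-like receptors, fell in the double knockout (-0.28, SE 0.05, adjusted p = 0.0033) and in *Rnaseh2b*ΔIEC (-0.19, adjusted p = 0.031). *Ppm1b*, a phosphatase that removes the activating phosphates of RIPK3, fell in the double knockout (-0.27, adjusted p = 0.0077) and in *Atg16l1*ΔIEC (-0.18, adjusted p = 0.035). The inositol phosphate kinase genes *Ipmk* and *Ippk*, whose products make the ligands that activate MLKL, moved in opposite directions in the double knockout against WT (-0.15 and 0.24, adjusted p = 0.0052 and 0.037). *Adar*, which edits double-stranded RNA and restrains ZBP1, rose in *Atg16l1*ΔIEC (0.21, adjusted p = 0.012). *Flot2*, a flotillin that removes phosphorylated MLKL from the membrane, was lower in the double knockout than in *Rnaseh2b*ΔIEC and *Atg16l1*ΔIEC (-0.22 and -0.23). With pairs as a random effect all of the calls named for these partners were lost, with adjusted p between 0.099 (*Ticam1* in the double knockout) and 0.26 (*Ticam1* in *Rnaseh2b*ΔIEC).

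Of 8 genes of apoptotic execution, 3 rose in *Rnaseh2b*ΔIEC, the executioner caspase gene *Casp6* (0.40, adjusted p = 0.029, limma), *Bid* (0.24, adjusted p = 0.015), which links caspase-8 to mitochondria, and the nuclease gene *Dffb* (0.21, adjusted p = 0.014). With lane as a covariate all 3 calls were lost (adjusted p = 0.95, 0.13 and 0.24), and likewise with pairs (adjusted p = 0.10, 0.14 and 0.20). In *Atg16l1*ΔIEC and in the double knockout 0 of the 8 passed against WT with limma, and 3 in each had an unadjusted p under 0.05. Of all 12802 tested genes, 4388 and 4224 had such a p in these comparisons.

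Because *Zbp1* and *Mlkl* are interferon-inducible genes, 15 genes of the interferon response were also counted, of which 14 were tested. *Isg15*, a ubiquitin-like interferon target, rose in *Atg16l1*ΔIEC (0.57, adjusted p = 0.041, limma) and in the double knockout (0.66, adjusted p = 0.028). The list medians were 0.13, 0.22 and 0.15 in *Rnaseh2b*ΔIEC, *Atg16l1*ΔIEC and the double knockout, with values above 0 for 10, 13 and 12 of the 14 genes whether or not they passed. In *Rnaseh2b*ΔIEC against WT 0 of the 14 passed with limma. There 0 had an unadjusted p under 0.05, where 5029 of all 12802 tested genes had such a p. In *Atg16l1*ΔIEC and in the double knockout 2 rose and 0 fell. Of all tested genes 8.73% and 8.1% rose in these comparisons, and 10.4% and 8.01% fell. *Isg15* ranged from 4.69 to 4.82 in WT and from 4.89 to 5.91 in the double knockout, and its calls were not retained with pairs as a random effect (adjusted p = 0.21 and 0.19).

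Among all tested genes, those most like each member over the 14 samples were found by Pearson correlation, which is a description over samples that share genotype, lane and pair. *Tnfaip3* was followed most closely by *Map3k1* (0.99), *Bhlhe40* (0.96) and *Fndc3a* (0.95), and *Mlkl* by *Hspd1* (0.91), *Batf2* (0.89) and *Nmral1* (0.88). For *Ripk3* the closest gene was *Dsg2* (0.95), for *Tnfrsf1a* *Tmem25* (0.98), for *Casp8* *Kifc3* (0.97), for *Ripk1* *Usp10* (0.97), for *Cflar* *Adipor2* (0.94) and for *Fadd* *Tma7* (0.93). No member was among the 3 closest genes of another member. With only 3 genes taken out of 12802 tested, this could hardly have come out otherwise. Between members the correlations ranged from -0.64 (*Mlkl* and *Cflar*) to 0.72 (*Casp8* and *Tnfaip3*), and *Ripk3* and *Mlkl*, which act in sequence, were at -0.02.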

How the data were processed

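Stranded mRNA libraries were made from total RNA of small intestinal organoids. Per the methods and labels, adapters were removed with cutadapt, alignment to GRCm38 used TopHat2, HTSeq gave the gene counts and DESeq2 the authors' tests. The authors excluded *Rnaseh2b*ΔIEC samples for their read counts, and these are not analysed here. The authors deposited log2 values for 18781 genes and 14 samples, normalized between samples by a step that is not stated. Whole reads could not be recovered, depth is therefore unknown, and count models were not used. All columns were matched to samples by library name, and 99.71% of the identifiers had a symbol in GENCODE M21.

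The members and gene lists were chosen with earlier results of these data known. limma 3.58.1 in R 4.3.3 was run on the deposited values (lmFit, contrasts.fit, eBayes with trend) with 1 mean per genotype, no covariate, a filter of 3.32 on the log2 scale and Benjamini-Hochberg adjustment at 0.05 over 12802 genes. Because the values are on a log scale, the count test of the study's methods was not applied. All members were named. Of the wider lists, genes past the threshold in at least 1 of the 6 comparisons could be named, at most the 4 largest per list and comparison, with listed genes too low to test. For likeness the 3 tested genes with the highest correlation per member were taken.

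Alternatives were a lane covariate, a block for the replicate number, libraries 1 and 2 or 3 and 4 of a genotype as pairs, as a random effect (consensus correlation 0.65) or averaged, no filter, a filter of 50 on the linear scale, upper quartile and total scaling, a pseudocount of 1 added to the back-transformed values, only the groups compared, lane 2 only, and leaving out each library. Exon lengths and coordinates are from GENCODE M21 and promoters from RefSeq (GRCm38.p6). Results of 1 gene of the interferon list are not reported here.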

Additional observations from a re-analysis of the deposited data

Results flagged for a closer look

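The effect of *Rnaseh2b* deletion differed with the *Atg16l1* genotype for 3 members by a test of the difference itself (limma interaction, Benjamini-Hochberg adjusted over all tested genes). The difference was 1.02 for *Tnfaip3* (adjusted p = 0.00012), where all samples of *Rnaseh2b*ΔIEC were below WT while the double knockout overlapped with *Atg16l1*ΔIEC. It was -0.31 for *Tnfrsf1a* (adjusted p = 0.00087) and 0.24 for *Ripk3* (adjusted p = 0.011). The *Ripk3* value was 0.11 with lane as a covariate (adjusted p = 0.44) and had an adjusted p of 0.086 with pairs as a random effect, whereas those of *Tnfaip3* and *Tnfrsf1a* were 0.98 and -0.35 with that covariate (adjusted p = 0.0093 and 0.019). The same test gave 1.40 for *Atg16l1* (adjusted p = 0.00022) and 0.55 for *Rnaseh2b* (adjusted p = 0.0037), whose RNA was less reduced in the double knockout, and the part of this in the 3 results was not tested. Among all tested genes 17% passed this test in the positive and 18.1% in the negative direction.

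In *Atg16l1*ΔIEC organoids *Ripk3* had 1 sample, at 10.97, whose gap to the other 3 samples (11.07 to 11.08) was large for the range of the group. Of 24 groups of 4 samples checked this was the only one, and chance alone gives about 1 in 20.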

How the results depend on the processing

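One group has 2 samples, no read totals are known, and low genes such as *Zbp1* cannot be judged. The main limits are the lane, which is confounded with genotype outside the double knockout and with the sample pair within it, and the pairs of similar samples. Averaging the pairs left 0 members past the threshold in all 6 comparisons with limma, and 0 of the wider pathway genes. Of all 12802 tested genes it left only 1, lower in *Atg16l1*ΔIEC than in WT, so this result is not particular to the members. Between 2 and 3 members and between 7 and 11 wider genes then had an unadjusted p under 0.05, and the fit has few samples. Between 1311 and 2773 of all tested genes had such a p. With pairs as a random effect 1 member was called in each single knockout against WT, 1 in the double knockout against *Rnaseh2b*ΔIEC, and 0 in the double knockout against WT and against *Atg16l1*ΔIEC (3 and 2 at an unadjusted p under 0.05). Of the wider pathway genes 2, 0 (8 at an unadjusted p under 0.05), 1, 3, 3 and 7 were then called, in the order *Rnaseh2b*ΔIEC, *Atg16l1*ΔIEC and the double knockout against WT, the double knockout against *Rnaseh2b*ΔIEC and against *Atg16l1*ΔIEC, and the difference between effects. Of all 12802 tested genes, those then called higher and lower against WT were 428 and 300, 143 and 241, and 36 and 49. For the double knockout they were 193 and 499 against *Rnaseh2b*ΔIEC and 245 and 233 against *Atg16l1*ΔIEC. The difference between effects passed for 679 and 874 genes. In each comparison fewer of all tested genes were called than in the reported fit. With lane as a covariate 1 member and 7 wider genes were called in *Rnaseh2b*ΔIEC. In *Atg16l1*ΔIEC the members *Tnfaip3* (adjusted p = 0.027, limma) and *Ripk1* (adjusted p = 0.024) and 6 wider genes were called with that covariate. Of all tested genes 792 were then called higher and 712 lower in *Rnaseh2b*ΔIEC, and 777 higher and 809 lower in *Atg16l1*ΔIEC. Without a filter 10 wider genes differed between the double knockout and *Rnaseh2b*ΔIEC, where 1225 of all 18781 genes were called higher and 1811 lower. Fits of only the groups compared gave 7 for the double knockout against WT and 10 against *Atg16l1*ΔIEC. Of all tested genes these fits called 574 higher and 686 lower, and 1022 higher and 1043 lower. The cause of these changes was not tested.

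Leaving out 1 library at a time gave 2 to 5, 1 to 4, 2 to 4, 1 to 3, 2 to 3 and 3 to 4 members in the same order, the lowest of the first without *Rnaseh2b*ΔIEC 2, of the second without WT 4 and of the fourth without *Rnaseh2b*ΔIEC 2. The wider genes ranged from 4 to 21, 8 to 19, 5 to 14, 6 to 15, 9 to 19 and 11 to 24. Counts moved by over 1.5 times without either *Rnaseh2b*ΔIEC library in the first and the fourth, and without *Rnaseh2b*ΔIEC 2 in the last. These fits leave 1 sample in that group. The counts also moved by this much without WT 1, WT 2 or the double knockout 1 in the third (5, 6 and 7). The same held without *Atg16l1*ΔIEC 3 or 4 in the fifth (9 and 10), and without the double knockout 1 in the second (19). The calls over all tested genes moved in the same direction in each of these fits. In the second they went from 1117 higher and 1333 lower to 1314 and 1556 without the double knockout 1. In the third they went from 1037 higher and 1026 lower to 467 and 545 without WT 1. They were 445 and 556 without WT 2, and 585 and 704 without the double knockout 1. In the fifth they went from 1616 and 1602 to 927 and 900 without *Atg16l1*ΔIEC 3, and to 937 and 895 without *Atg16l1*ΔIEC 4. A lone *Rnaseh2b*ΔIEC library is assumed to vary like the other groups.

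Directions of the members turned only for values that did not pass the threshold, before or after. With lane as a covariate these were *Ripk1* in *Rnaseh2b*ΔIEC (-0.08) and the double knockout against WT (-0.04) and between double knockout and *Rnaseh2b*ΔIEC (0.03, also 0.03 within lane 2), *Cflar* (-0.04) and *Fadd* (-0.01) in *Atg16l1*ΔIEC, *Fadd* in the double knockout against *Rnaseh2b*ΔIEC (0.02, also 0.02 within lane 2 and with total scaling) and in the difference between effects (0.03), and *Casp8* in *Rnaseh2b*ΔIEC (0.03), in the double knockout against *Rnaseh2b*ΔIEC (-0.08, also -0.08 within lane 2 and -0.04 with the replicate block) and against *Atg16l1*ΔIEC (-0.05, also -0.05 within lane 2), and in the difference between effects (-0.07). *Ripk3* in the double knockout against *Atg16l1*ΔIEC was 0.02 with total scaling. With 1 library left out, *Ripk3* ranged from -0.02 to 0.04 in *Atg16l1*ΔIEC, -0.02 to 0.03 in the double knockout and -0.03 to 0.02 between them, *Fadd* from -0.02 to 0.03 in the last, *Casp8* from -0.02 to 0.06 in the double knockout against *Rnaseh2b*ΔIEC, *Cflar* from -0.02 to 0.05 in *Atg16l1*ΔIEC, and the difference between effects from -0.01 to 0.10 for *Ripk1* and -0.13 to 0.01 for *Mlkl*.

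The same replicate number in different genotypes did not pair the samples, with correlations from -0.50 to 0.44 over 18 pairs. With that number as a block the calls were the same in 44 of 48 member results, the rise of *Mlkl* in *Rnaseh2b*ΔIEC was lost (0.22, adjusted p = 0.13, limma), and *Casp8* in the double knockout against WT (-0.14, adjusted p = 0.026) and *Ripk1* against *Atg16l1*ΔIEC (0.16, adjusted p = 0.022) passed. Total scaling changed the split of all tested genes from 1848 higher and 1576 lower to 1388 and 2117 in *Rnaseh2b*ΔIEC against WT, and from 2180 and 2319 to 2933 and 1778 for the difference between effects.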
